A study of Homo sapiens with 2 samples.

Results

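Accessible chromatin around 7 transcription factor genes of the primitive streak, TBXT, EOMES, MIXL1, GSC, MESP1, MESP2 and TBX6, was examined in undifferentiated human cells. A region belonged to the set when its strongest summit lay in the annotated gene body of one of these genes or within 100 kb of it, which held for 93 of the 160327 regions in the deposited list. The cells were H1, an established human embryonic stem cell line, with no genetic change or treatment named in the labels. They had been frozen, were thawed, freed of DNA from dead cells with DNase I, purified on Ficoll and processed by Omni-ATAC, in which a transposase cuts and tags open DNA. The 2 samples formed 1 group and shared 1 peak list, and the labels do not say whether they were separate cultures. There was thus no second condition and no value per sample, and the statements below compare genes and regions within that list, with no spread between replicates. The 93 regions made 103 pairs of a region and a gene, because 10 regions were shared by the neighbouring MESP1 and MESP2, so the 7 genes stand for 6 separate loci.

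The primitive streak is the structure through which epiblast cells leave the pluripotent state at gastrulation to form mesoderm and endoderm. NODAL, WNT, FGF and BMP signals induce it, and the genes studied here are the transcription factors that carry out the programme. Embryonic stem cells are the cultured counterpart of the cells before this step, and many developmental regulators of this kind are known to be held at low activity in them, with promoters that stay accessible.

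Sequences at the summits are shown first, for the regions on which the later results turn. Each run is 101 bases of the hg38 reference centred on the strongest summit, read 5′ to 3′ on the strand of the named gene. Distances are from the outermost annotated 5′ end of that gene, with "upstream" and "downstream" taken along its strand. Capitals mark matches, on either strand, to the short consensus strings listed further on. In the TBXT start region the capitals are a SOX string. In the strongest region of the TBXT window they are a loose core of the CTCF site.

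TBXT, start region, chr6:166167924-166168024, minus strand: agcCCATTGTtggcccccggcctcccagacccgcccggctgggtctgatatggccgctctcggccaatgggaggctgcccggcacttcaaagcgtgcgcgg
TBXT, 70.6 kb downstream, chr6:166098050-166098150, minus strand: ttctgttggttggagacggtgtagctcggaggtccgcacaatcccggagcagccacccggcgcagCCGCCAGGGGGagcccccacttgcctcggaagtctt

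In the EOMES regions the capitals 63.3 kb downstream are, in order, a TEAD string, a looser T-box string and the CTCF core. That core holds a ZIC string. In the regions upstream of EOMES the capitals are a TCF/LEF string, with an E box before it in the nearer region.

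EOMES, 63.3 kb downstream, chr3:27659332-27659432, minus strand: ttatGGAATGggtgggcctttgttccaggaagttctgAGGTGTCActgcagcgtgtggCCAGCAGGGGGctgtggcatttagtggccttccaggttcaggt
EOMES, 8.81 kb upstream, chr3:27731468-27731568, minus strand: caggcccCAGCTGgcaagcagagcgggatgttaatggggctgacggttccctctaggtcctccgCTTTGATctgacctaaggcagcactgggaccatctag
EOMES, 44.5 kb upstream, chr3:27767160-27767260, minus strand: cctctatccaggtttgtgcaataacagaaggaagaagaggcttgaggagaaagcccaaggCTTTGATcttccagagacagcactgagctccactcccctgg

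The MIXL1 region below was the only one of the 93 with the stricter T-box string. Its capitals are that string, a pair of overlapping octamers and the CTCF core. The downstream GSC region shows the CTCF core and then a second core running into an E box and a looser T-box string. The upstream GSC region shows a FOXH1 string overlapping a TEAD string.

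MIXL1, 12.9 kb upstream, chr1:226210651-226210751, plus strand: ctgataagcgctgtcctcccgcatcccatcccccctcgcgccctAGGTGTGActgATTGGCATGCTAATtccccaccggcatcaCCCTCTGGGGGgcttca
GSC, 21.1 kb downstream, chr14:94748934-94749034, minus strand: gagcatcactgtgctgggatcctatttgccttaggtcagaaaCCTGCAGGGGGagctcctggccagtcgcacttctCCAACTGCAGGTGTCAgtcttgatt
GSC, 5.45 kb upstream, chr14:94775512-94775612, minus strand: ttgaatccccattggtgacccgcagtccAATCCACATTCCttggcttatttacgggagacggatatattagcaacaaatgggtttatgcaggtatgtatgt

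The last run of this kind is the strongest region of the TBX6 window, whose capitals are the longer of the strict CTCF strings.

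TBX6, 70.2 kb downstream, chr16:30021652-30021752, minus strand: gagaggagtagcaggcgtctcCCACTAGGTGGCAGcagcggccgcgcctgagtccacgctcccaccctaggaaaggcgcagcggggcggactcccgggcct

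MESP1 and MESP2 are close relatives that lie head to head, and their start regions are shown as a pair. In these runs the capitals mark the bases that are the same in both genes and the small letters those that differ.

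MESP1, start region, chr15:89750828-89750928, minus strand: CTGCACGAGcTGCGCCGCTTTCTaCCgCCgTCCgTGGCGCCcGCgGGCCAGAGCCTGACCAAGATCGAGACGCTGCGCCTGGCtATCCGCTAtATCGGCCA
MESP2, canonical start region, chr15:89776656-89776756, plus strand: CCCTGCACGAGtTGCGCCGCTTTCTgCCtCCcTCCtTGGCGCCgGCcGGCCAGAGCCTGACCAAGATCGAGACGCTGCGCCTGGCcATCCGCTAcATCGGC

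A region marked the start of all 7 genes, while 71.4% of the 20033 protein-coding genes had one. A gene was counted when a strongest summit lay within 1000 bp of its outermost annotated 5′ end. With the start of the Ensembl canonical transcript in its place, the count was again 7 of 7, against 75.6% of all genes. The strength of these regions is given by the fold, the authors' own value for the enrichment of the summit over a background that the sources used here do not describe. The median fold at the starts of the 7 genes was 5.52, and it was 9.49 over all protein-coding genes with a region there. The fold was below that median in 6 of the 7 genes. It was also below that median in all 10 pluripotent cell markers listed further on, which had folds from 4.69 to 8.72. A fold below the median was thus not particular to the streak factors. In bulk chromatin, a site open in few of the cells and one that is less accessible in each cell cannot be told apart.

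TBXT, or brachyury, is the T-box factor that drives mesoderm and notochord formation. Its start region (chr6:166167500-166168496) had a fold of 5.52, at the 17.3rd percentile of genes with a region at the start. It peaked 123 bp before the canonical start, and 54 bp from the start of the long non-coding RNA gene LNCDAT. A second and much weaker region lay 351 bp upstream of the outermost 5′ end, with a fold of 2.28 at the 0.390th percentile of all regions in the list. It was the weakest of the 93.

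EOMES, or eomesodermin, is the T-box factor needed for the streak and for definitive endoderm. Its start region (chr3:27720757-27722672) had a fold of 5.86, at the 19.6th percentile of genes. It was the widest of the 93 regions, at 1916 bp, and carried 5 summits with folds from 2.27 to 5.86. The strongest of them lay 42 bp inside the canonical start. A further summit with a fold of 3.82 lay 1259 bp inside it.

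TBX6, the T-box factor of paraxial mesoderm, had a start region with a fold of 5.46, at the 17.0th percentile, and a summit 63 bp upstream. A smaller region with a fold of 3.87 lay 757 bp upstream. The folds at the starts of the 3 T-box genes thus lay between 5.46 and 5.86. Their values differed by less than the summits within the EOMES region did.

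MIXL1 is a paired-type homeodomain factor induced by NODAL signalling in the streak. Its start region (chr1:226223114-226224295) had 4 summits with folds of 3.72, 4.76, 5.47 and 4.28 in the order along the gene. The strongest lay 241 bp inside the canonical start and the next strongest 17 bp upstream of it. GSC, or goosecoid, is the homeodomain repressor known as a marker of the organizer. It had the lowest fold of the 7 genes, 4.49, at the 10.6th percentile, with a summit 90 bp upstream. The same summit lay 68 bp from the start of a long non-coding RNA gene, ENSG00000285205.

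MESP1 and MESP2 are basic helix-loop-helix factors, the first known for cardiac mesoderm and the second for the segmentation of somites. MESP1 had a start region (chr15:89750532-89751478) with a fold of 9.80, at the 52.9th percentile, the only one of the 7 above the median. MESP2 depended on which start was used. At its outermost 5′ end the fold was 8.34, at the 39.9th percentile. At the canonical start, 15741 bp downstream, it was 13.5, at the 82.0th percentile (chr15:89776242-89777313). With canonical starts, MESP1 and MESP2 were thus above the median of all genes, 9.54, and the other 5 were below it.

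TBXT, EOMES, MIXL1, TBX6 and GSC were also low among genes of like CpG content. The ratio of observed to expected CpG in the 500 bp to either side of the outermost start ranged from 0.630 for EOMES to 0.919 for GSC, apart from 0.253 for MESP2. All genes were divided into 10 equal bands by that ratio. In the band of each gene the median fold was 9.58 for TBXT and MIXL1, 10.2 for EOMES and MESP1, 10.8 for TBX6 and 9.04 for GSC. Within the bands the percentiles were 13.4 for TBXT, 17.2 for EOMES, 13.1 for MIXL1, 11.7 for TBX6 and 6.99 for GSC. The MESP genes were higher, with percentile 46.2 for MESP1 and 71.4 for MESP2, whose band had a median fold of 5.87. For MESP2 the ratio, band and percentile hold for the outermost start alone. No ratio was taken at its canonical start, 15741 bp downstream.

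**Figure D1:**
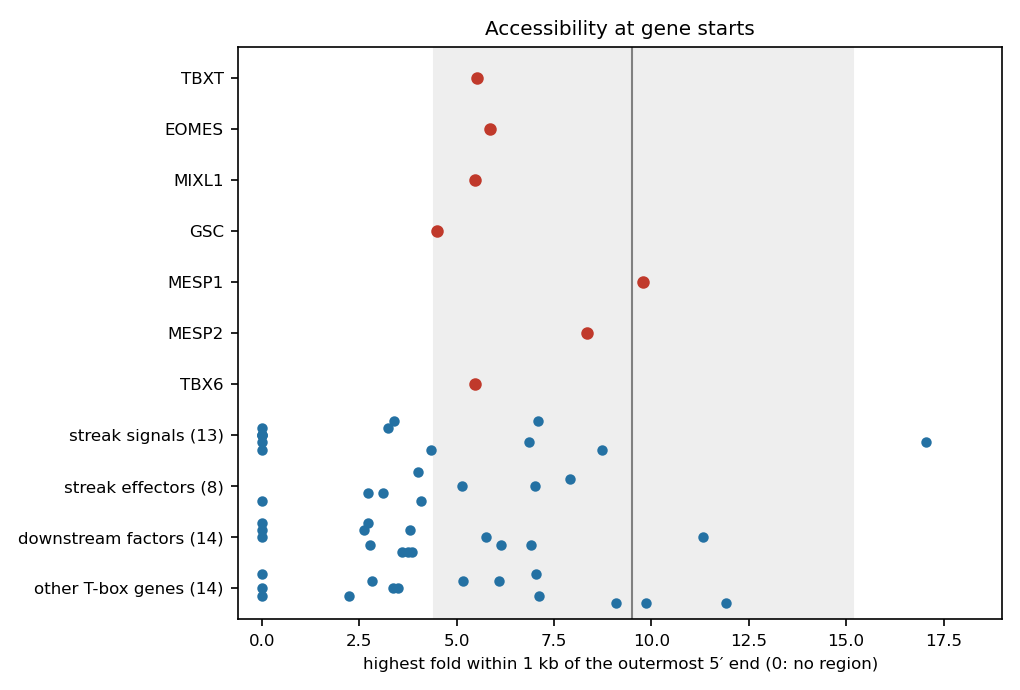
Highest fold (linear axis) of a region within 1 kb of the outermost 5′ end for each of the 7 genes (red) and for the genes of 4 related lists (blue, 1 point per gene, 0 where there was no region, numbers of genes in brackets). The line is the median, 9.49, and the grey band the 10th to 90th percentile, 4.41 to 15.2, of all protein-coding genes with a region there, and 6 of the 7 genes lie left of the line.

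In each window the strongest region lay away from the gene itself. In the 93 regions the median fold was 5.47, with a 10th to 90th percentile of 3.09 to 11.6, and over the whole list it was 5.38, with 3.20 to 11.9. The top 10% of the list, which starts at a fold of 11.9, held 8 of the 93 (8.60%, 95% exact Clopper-Pearson interval 3.79% to 16.2%). The 93 regions as a set were thus close to the list in median fold. Split by place, their medians were below those of the list. Outside every promoter the medians were 4.89 for the set and 5.20 for the list, and at promoters 6.39 and 7.58. The set held a larger share of promoter regions, which had the higher medians. How far that share brought the pooled medians together was not tested. None of the 8 regions in the top 10% was within 1000 bp of an outermost start of the 7 genes, and 1 was at the canonical start of MESP2. Each gene had only 1 or 2 regions at its outermost start, so few could have been there. The windows of other genes were not compared for this.

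The strongest of all lay 70.6 kb downstream of the TBXT start (chr6:166097555-166098519). It had a fold of 20.0, at the 99.6th percentile of all regions, against 5.52 at the gene's own start. Its summit lay 11 bp from the start of a long non-coding RNA gene, ENSG00000287824, and TBXT was the nearest protein-coding gene. Next in that window was a summit in an annotated intron 62.4 kb downstream (chr6:166105994-166106464), with a fold of 12.9, and then one 28.8 kb upstream with 8.20.

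For EOMES the strongest region lay 55.8 kb downstream (chr3:27666311-27667168), between genes, with a fold of 13.8. Its −log10 p, the authors' value for how far the summit stood out statistically, was 287, the highest of the 93 regions. A second strong one lay 63.3 kb downstream (chr3:27659217-27659684), with a fold of 11.8, and the third was 41.4 kb downstream with 8.57. All 3 had EOMES as the nearest protein-coding start.

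The GSC window had the same arrangement. Its strongest region, 62.4 kb downstream (chr14:94707352-94707936), had a fold of 16.5, at the 97.9th percentile. The region 21.1 kb downstream (chr14:94748656-94749118) had 11.8, and one 80.4 kb downstream, nearest to SERPINA3, had 9.34. In the 3 windows of TBXT, EOMES and GSC no other protein-coding 5′ end was present.

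The other windows held starts of other genes, and their strongest regions were mostly at or near those. In the MIXL1 window the highest fold was 13.2, at 26.4 kb upstream (chr1:226197026-226197520), and ACBD3 was the nearest start, at 10451 bp. The ACBD3 start itself had 12.1. In the MESP windows the highest was 15.3, at the shared start of PEX11A and WDR93 (chr15:89690218-89691208), ahead of 13.5 at the canonical MESP2 start and 10.8 at 11.0 kb downstream of MESP1. TBX6 lies in a gene-dense stretch with 12 other protein-coding 5′ ends in the window. Its highest folds were 10.7 in an intron 1496 bp from the start of C16orf92 (chr16:30020960-30021904), 9.30 at the start of PPP4C and, a little lower, at the 78.9th percentile of the list, that at the starts of HIRIP3 and INO80E. The other neighbours with a region at the outermost start were ANPEP with 7.44, LIN9 with 7.51, MAPK3 with 7.52, YPEL3 with 6.59, CORO1A with 6.42, TLCD3B and the gene ENSG00000285043 with 5.82 from 1 shared region, and ALDOA with 3.96. KIF7, PLIN1, DOC2A, C16orf92 and GDPD3 had none there. Of the neighbours of TBX6 with a region at that start, ALDOA alone had a lower fold than TBX6. At canonical starts the order differed, since TLCD3B with 3.65 and DOC2A with 5.03 were below the 5.46 of TBX6 and ALDOA with 8.60 was above it.

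**Figure D2:**
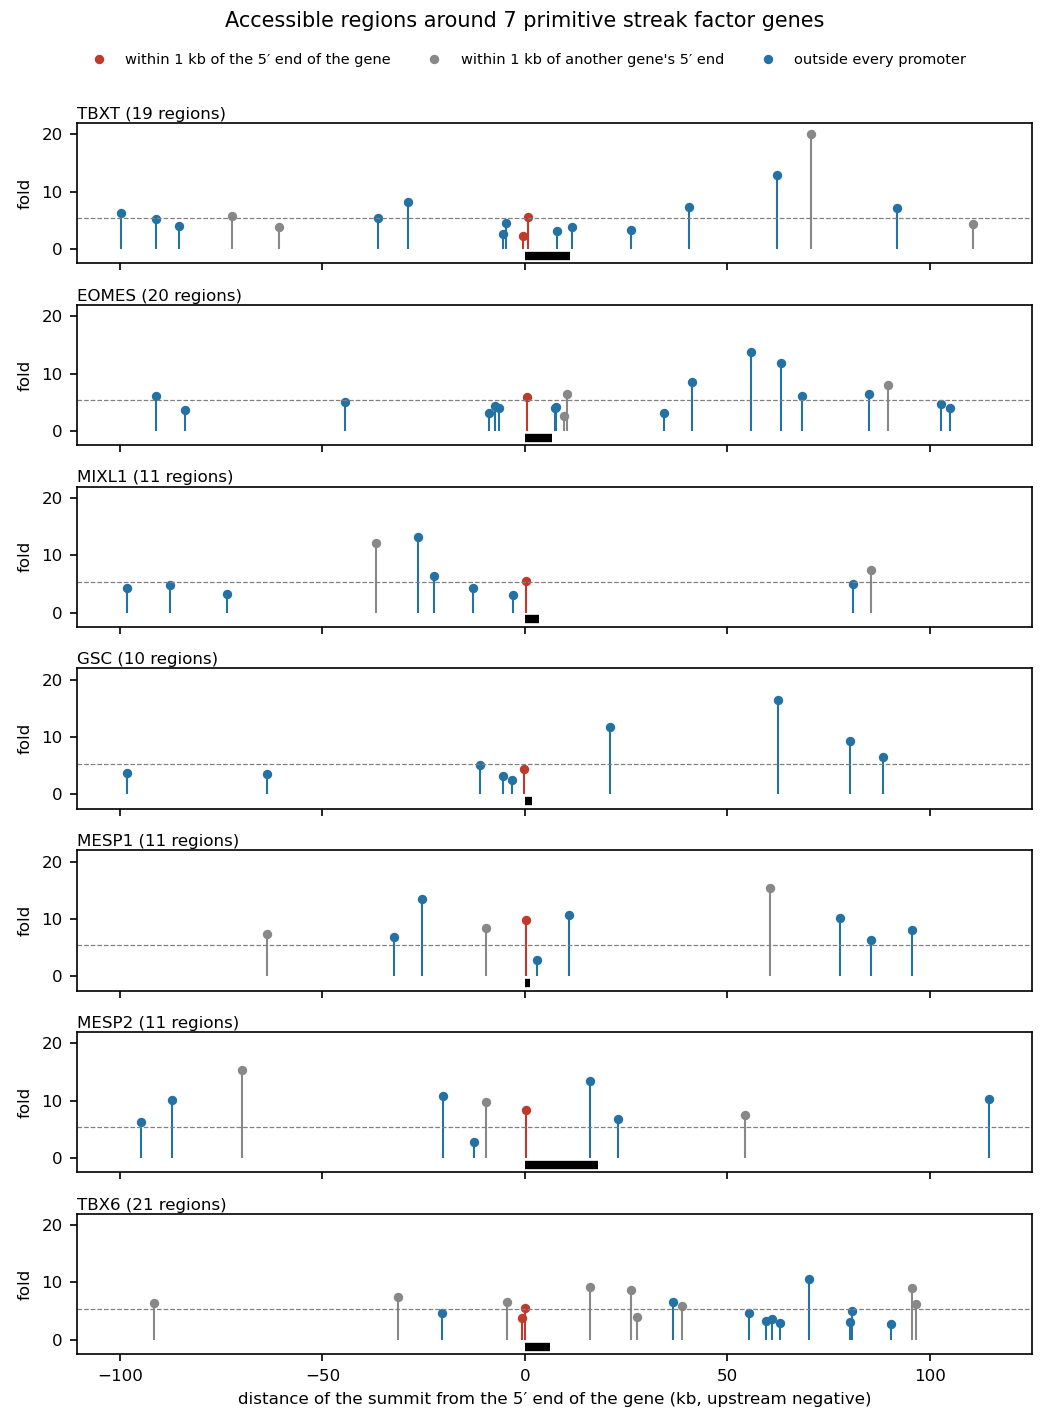
Fold (linear axis, dots on stems) of each region against the distance of its strongest summit from the outermost 5′ end of the gene, in kb along the gene's strand, with 1 panel per gene. Red dots are at the start of that gene, grey dots at the start of another gene and blue dots outside every promoter, the black bar is the gene, the dashed line is the median fold of the whole list, 5.38, and the tallest stem, 20.0, stands 70.6 kb downstream of TBXT.

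The number of regions differed between the windows. TBX6 had 21, EOMES 20, TBXT 19, MIXL1, MESP1 and MESP2 11 each and GSC 10. The same count over all protein-coding genes had a median of 16 and a 10th to 90th percentile of 7 to 28, which places TBX6 at the 73.2nd percentile and GSC at the 19.2nd. These counts include regions of neighbouring genes. When a region was counted only for the closest protein-coding start, up to 100 kb away, EOMES received 18, TBXT 13, GSC 8, MIXL1, MESP1 and MESP2 3 each and TBX6 2. These 50 regions became 19 when genes of every type competed, with 4 for EOMES, 3 each for TBXT, MIXL1, MESP1 and MESP2, 2 for TBX6 and 1 for GSC.

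With protein-coding starts alone counted, EOMES had the most of these regions outside every promoter. It was the nearest protein-coding gene for 14 of them, at the 96.4th percentile of all protein-coding genes, whose median was 2 and 90th percentile 10. TBXT had 9, at the 87.4th percentile, and GSC 7, at the 80.8th. TBX6 had 0, at the 12.5th, because other starts lay closer. With genes of every type competing, EOMES kept 3 of these, TBXT, MIXL1, MESP1 and MESP2 had 2 each and GSC 1, so the lead of EOMES holds for protein-coding genes and was 1 region otherwise.

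Of the 93 regions, 64 (68.8%, interval 58.4% to 78.0%) were outside every promoter, against 86.9% of the list. The windows were drawn around genes, so part of this excess of promoters over the list was built in. The interval does not account for that, and the windows of other genes were not compared for this share. Protein-coding promoters held 21 (22.6%, against 8.89% of the list) and promoters of other genes 8 (8.60%, against 4.20%). Intergenic sequence held 39 (41.9%, against 30.2%), introns 15 (16.1%, against 51.0%), and coding sequence 5 (5.38%, interval 1.77% to 12.1%, against 1.53%). Other exons held 3 (3.23%, against 2.08%), 5′ untranslated regions 1 (1.08%, against 0.760%) and 3′ untranslated regions 1 (1.08%, against 1.35%). Introns alone were far below the list, and coding sequence was above it with the list's share just under the interval. The 7 genes are short, from 1375 bp for MESP1 to 18164 bp for MESP2.

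Regions were also wider and more often had several summits than the list as a whole. Their median width was 597 bp, against 447 bp, and 47 of 93 (50.5%, interval 40.0% to 61.1%) had more than 1 summit, against 30.7%. Among regions outside promoters the widths were 480 and 423 bp and the shares with more summits 34.4% (22.9% to 47.3%) and 25.6%. At promoters the widths were 878 and 870 bp and the shares with more summits 86.2% (68.3% to 96.1%) and 64.6%. For several summits the list's share was thus below the interval at promoters and inside it elsewhere. The part of the larger share of promoters in both differences was not tested beyond this split.

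At the edge of the windows, the outermost region of the TBXT window, 99.8 kb from the gene, had a fold of 6.28 and the next one outside it, at 107 kb, had 17.4. For EOMES the pair was 4.05 at 98.2 kb and 9.67 at 105 kb, for MIXL1 4.23 at 98.3 kb and 7.20 at 102 kb, and for GSC 3.73 at 98.3 kb and 3.62 at 169 kb. For MESP1 it was 8.14 at 94.3 kb and 10.2 at 103 kb, for MESP2 10.3 at 96.4 kb and 8.14 at 105 kb, and for TBX6 6.42 at 91.6 kb and 10.7 at 102 kb.

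A dense group of weak but statistically strong regions surrounded EOMES. Within 20 kb of its start lay 8 regions, at the 97.8th percentile of protein-coding genes (median 3, 90th percentile 6). TBXT had 6 within that distance, GSC, MESP1, MESP2 and TBX6 4 each and MIXL1 3. Upstream of EOMES they lay at 6.26, 7.47 and 8.81 kb, with folds of 4.05, 4.41 and 3.20. Downstream they lay at 7.40, 7.74, 9.78 and 10.5 kb, with folds of 4.06, 4.20, 2.65 and 6.39, the outer 2 of these at the start of the long non-coding RNA gene LINC02084. The start region with 5.86 stood between.

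These folds were low, with a median of 4.13, but the −log10 p values were not. They ran from 14.8 to 98.6 with a median of 44.5, above the list's 27.7. To compare regions of like fold, the −log10 p of each region was ranked among the 2001 regions closest to it in fold, and 7 of the 8 EOMES regions were above the 90th percentile of their neighbours, with the last at 85.7. The background share above that percentile was 9.38% of all regions and 31.2% of promoter regions. In the whole set of 93 it was 15 (16.1%, interval 9.32% to 25.2%), of which 9 were among the 29 promoter regions. Of the remaining EOMES window, outside 20 kb, 0 regions were above it. A high rank was not particular to EOMES, since 3 of the 4 regions within 20 kb of TBX6, all at promoters, were above it too. Within 20 kb it was 1 of 6 for TBXT, 1 of 4 for GSC and 0 for MIXL1, MESP1 and MESP2. The ranking was chosen after the values had been seen, and the distance of 20 kb was not varied. The contrast between regions inside and outside that distance is thus a description only.

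On the same ranking the start regions of TBXT, TBX6 and GSC were at the 96.5th, 96.0th and 93.8th percentiles. Those of MESP1 and MIXL1 were at 89.0 and 74.4, those of MESP2 at 48.6 for the outermost and 61.7 for the canonical start, and the weaker TBXT start region at 61.7. Distant regions of high fold ranged widely. Those of TBXT were at 22.8 for 70.6 kb downstream, 5.45 for 62.4 kb downstream and 39.4 for 28.8 kb upstream. Those of GSC, all downstream, were at 15.9 for 62.4 kb, 4.97 for 21.1 kb and 37.1 for 80.4 kb. The EOMES region at 55.8 kb was at 88.0, and the median of all regions outside promoters was 41.8. The 2 measures thus ordered the regions differently, and no source used here says how the caller set the background of each.

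**Figure D3:**
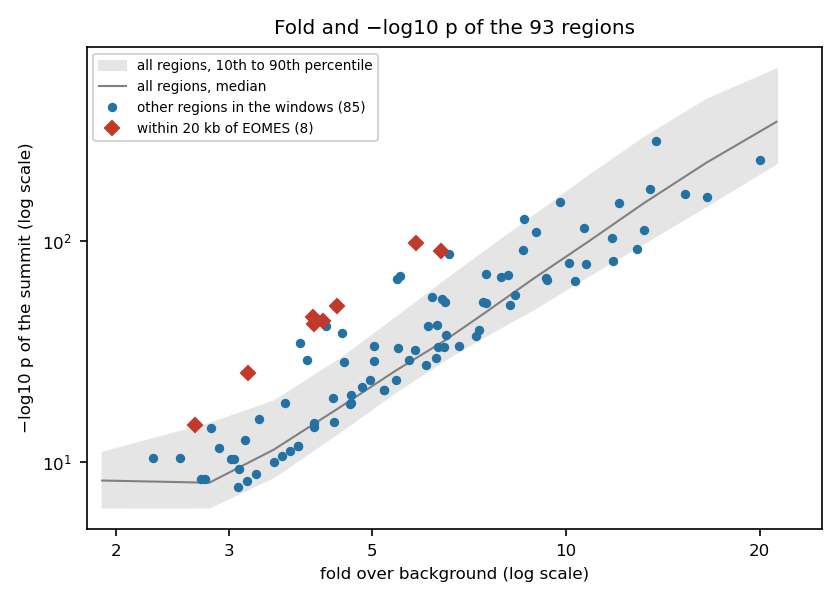
The −log10 p of each of the 93 regions against its fold over background (both axes logarithmic), with the 8 regions within 20 kb of the EOMES start as red diamonds and the other 85 as blue dots. The grey line and band give the median and the 10th to 90th percentile of all regions at that fold, and 7 of the 8 red diamonds were above the 90th percentile of regions of like fold.

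MESP1 and MESP2 were accessible at matching points of their coding sequence. Both strongest start summits fell in the first exon, 371 bp inside the MESP1 start and 374 bp inside the canonical MESP2 start. The stretches around them aligned over 712 bases, of which 578 (81.2%) were identical, with a longest identical run of 48 bases. In the pair of runs printed above, 92 of 101 aligned bases (91.1%) were the same. The MESP2 summit lay 2 bases from the base aligned to the MESP1 summit. Folds were 9.80 and 13.5, and −log10 p values 152 and 173. No source used here says how reads from such similar copies were assigned, so these values are uncertain for each gene, and reads exchanged between the copies were not tested.

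The summits were rich in G and C. The 101 bases at the strongest summit had a median G+C content of 63.4%, against 51.5% over the list. Outside promoters the values were 57.4% and 50.5%. The windows as a whole had from 40.8% G+C around EOMES to 52.8% around TBX6, so the regions were richer than their surroundings in each of the 7 windows. By window the median at the summits ran from 56.9% for EOMES and 57.4% for GSC to 70.3% for TBX6.

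**Figure D4:**
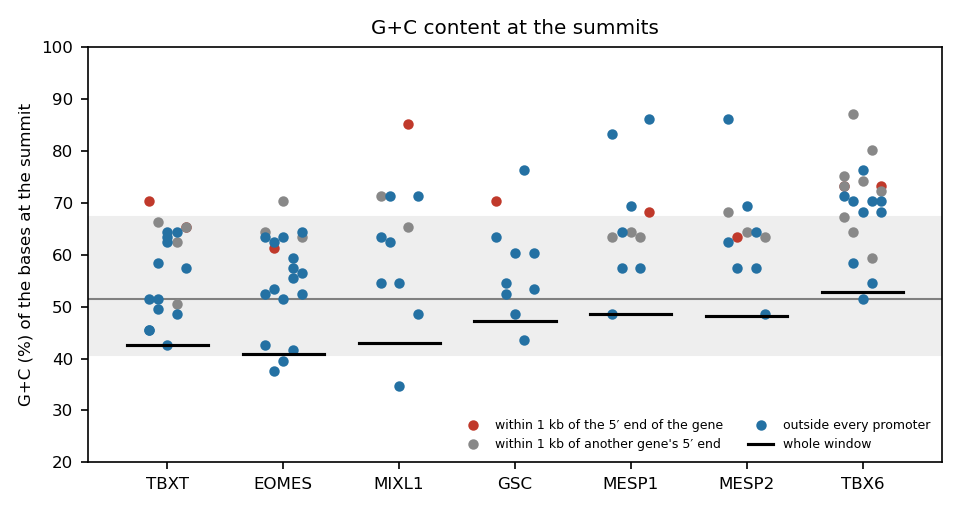
G+C content in percent of the 101 bases at each region's strongest summit, by gene, with the same colours by place as in the plot of folds by distance and a black bar for the whole window. The grey line, 51.5%, and band are the median and the 10th to 90th percentile, 40.6% to 67.3%, of all regions in the list, and most points of each gene lie above its black bar.

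Matches to the T-box strings were few in number, though their shares were not below those of the list. The strings were searched on both strands in the 101 bases at the strongest summit, and a match describes letters, not binding. The T-box string AGGTGTGA was found in 1 of 93 regions (1.08%, 0.0272% to 5.85%), against 0.564% of the list. That region, 12.9 kb upstream of MIXL1, is printed above. The looser T-box string TNACACCT, with 1 free base, includes every match to the stricter one. It was found in 4 (4.30%, 1.18% to 10.6%), against 1.73%, or 1.30% among regions of the same G+C content. Its other matches lay 63.3 kb downstream of EOMES, 21.1 kb downstream of GSC and 81.2 kb downstream of MIXL1, in an intron 5100 bp from the start of LIN9. For both strings the list's share was inside the interval of the 93 regions.

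Strings of the signalling effectors were found in 0 to 3 regions each. The TCF/LEF string CTTTGAT, the site through which WNT signals act, was found in 3 regions (3.23%, 0.670% to 9.14%), against 1.28%, or 0.769% at the same G+C content. EOMES had it 8.81 and 44.5 kb upstream, and the third lay 23.1 kb downstream of the outermost MESP2 start. The FOXH1 string AATNCACA, a partner of SMADs under NODAL, was found in 2 (2.15%), against 1.69%, or 0.917% at the same G+C content. The SMAD string CAGACA was found in 1 (1.08%, 0.0272% to 5.85%), against 7.52%, or 6.54% at the same G+C content. Its share in the list was thus above the interval of the 93 regions. Over 100 bases to either side the shares were 6.45% (2.40% to 13.5%) and 14.7%, so the list's share was again above it. The SMAD palindrome GTCTAGAC was found in 0, against 0.0543%.

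Homeodomain and pluripotency strings were found in 0 to 3 regions each. The bicoid-type string TAATCC, read by goosecoid and OTX2, was found in 2 (2.15%), against 3.65%, or 2.28% at the same G+C content, both in the EOMES window. The paired homeodomain string, which is TAAT and ATTA with 3 free bases between, was found in 0, against 0.114%. The octamer ATGCNAAT, read by POU factors, was found in 3 (3.23%), below the 3.86% of the list and above the 1.96% at the same G+C content. The SOX string ACAATGG was found in 1, the TBXT start region, against 2.36%, or 1.44% at the same G+C content. The joint POU-SOX string, which is TTGT and ATGCAAA with 1 free base between, was found in 0, against 0.119%. For each string with 0 matches, the upper bound of the interval was 3.89%.

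E boxes, the sites of basic helix-loop-helix factors such as MESP1 and MESP2, were found in 6 to 8 regions each. CAGCTG was found in 7 (7.53%, against 8.6%, or 9.49% at the same G+C content), CAGGTG in 8 (8.60%, against 12.4% or 13.5%) and CATCTG in 6 (6.45%, against 7.78% or 6.37%). For CATCTG the weighting thus turned the direction. Of the 7 regions with CAGCTG, 4 were in the EOMES window. Among other strings, the ZIC string CCTGCTG was found in 8 (8.60%, against 8.9%, or 9.58% at the same G+C content). The TEAD string GGAATG was found in 8 (8.60%), below the 11% of the list and above the 7.99% at the same G+C content. The string AGATAA, read by GATA factors, was found in 1 (1.08%, against 3.78%, or 1.89% at the same G+C content). Over 100 bases to either side its shares were 2.15% (0.262% to 7.55%) and 8.77%, so the list's share was above the interval there. The GC box GGGGCGGGG was found in 3 (3.23%, against 2.6%, or 7.16% at the same G+C content), and the forkhead string TGTTTAC in 0, against 1.75%, or 1.06% at the same G+C content.

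Letters of the site of CTCF, a protein that organises chromatin loops and boundaries, were searched in strict and loose form. The strict strings, AGGGGGCGC and the longer one of CCAC and AGGTGGCAG with 1 free base between, were found in 1 region each (1.08%), against 0.975% and 0.206%, or 1.98% and 0.208% at the same G+C content, which turned the direction for the first. A looser core was then added after the sequences of the strongest regions had been seen. It is CC, 3 free bases, AG, 2 free bases and GG, includes every match of the longer strict string and can overlap the ZIC and E box strings. It was found in 30 of the 93 (32.3%, interval 22.9% to 42.7%), against 18.2% of the list and 22.7% at the same G+C content. The latter was just below the lower bound, but that interval includes the regions from which the core was chosen. Over 100 bases to either side the shares were 43.0% (32.8% to 53.7%) and 25.0% of the list, and over every summit 21.1% and 16.0%.

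The core was in the strongest regions of the TBXT, MIXL1, MESP and TBX6 windows and in those printed above at 63.3 kb from EOMES and 21.1 kb from GSC. The strongest regions of EOMES and GSC had no match, and neither did the canonical MESP2 start. By window the core was found in 7 regions of TBXT, 7 of TBX6, 6 of MESP2, 5 of MESP1, 4 of EOMES, 4 of MIXL1 and 2 of GSC. Because the core was chosen from the strongest regions, its presence there is no finding, and the shares are a description only.

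RefSeq promoters, from 250 bases before to 50 after the start on GRCh38.p14, were matched for 6 of the 7 genes, with 2 entries for TBXT. The MIXL1 promoter held the TCF/LEF string 76 bases before the start, found in 2.62% of 35116 promoters, and the FOXH1 string 249 bases before it, found in 3.31%. The MESP2 promoter held the looser T-box string 81 bases before the start (2.61% of promoters). It also held the FOXH1 string at 155 bases and an octamer at 222 bases (2.97%). The TBXT promoter of the canonical start held the SOX string at 170 bases (3.16%). The EOMES, GSC and TBX6 promoters held none of the T-box, TCF/LEF, FOXH1, SOX or octamer strings.

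Genes of the pathway around these factors varied in whether their starts were accessible. Of 13 streak signal genes, 7 had a region at the outermost start, and the median fold of those 7 was 6.87. Highest was CER1, a secreted NODAL antagonist, with 17.0, and GDF3, a NODAL-related ligand, had 8.72. LEFTY2, WNT3A, WNT8A and FGF17 had none at either start, while NODAL and BMP4 had folds of 6.91 and 6.15 at their canonical starts alone. WNT3 had 4.35 at the outermost and 5.07 at the canonical start. LEFTY1 and FGF8 had 6.87 and 3.39 at the outermost start alone.

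Of 8 effector genes, 7 had one at the outermost start, with a median fold of 4.09, from 2.72 for FOXH1 to 7.91 for SMAD2. At canonical starts all 8 had one, with a median of 5.73. SMAD4 moved from 4.09 to 10.7 between the starts, and CTNNB1, which encodes beta-catenin, had 6.32 at its canonical start alone. Of 14 downstream factors of streak, endoderm and mesoderm, 11 had one at the outermost start, with a median of 3.80. At the canonical start 12 had one, with a median of 3.83. SNAI2, a repressor of epithelial genes, had the highest with 11.3, and SOX17 and EVX1 had none at either start. The 7 streak factors had a median of 5.52 at either start, which lay between the 2 medians of the effectors.

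Of the 14 other T-box genes, 11 had a region at the start, with a median of 6.08. TBX18 had the highest, 11.9, and TBR1, a close relative of EOMES, the lowest, 2.25. TBX1 and TBX19 had none at either start. TBXT, EOMES and TBX6 lay inside the range of these relatives. No list was compared with another by a test, since 1 list of peaks gives no spread.

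The label of the cells was checked on marker genes, beside the 71.4% of all protein-coding genes with a region at the outermost start and the 75.6% with one at the canonical start. All 10 pluripotent cell markers had a region at the outermost start, with folds from 4.69 for SOX2 to 8.72 for L1TD1 and a median of 6.87. All 10 folds were below 9.49, the median of all protein-coding genes with a region there. At canonical starts 9 of 10 had one, with POU5F1 at none and TDGF1 lowest at 2.89. Of 8 fibroblast markers 4 had one at the outermost start, PDGFRB with 6.88, COL1A2 with 6.37, LUM with 4.24 and TWIST2 with 3.79. The folds of PDGFRB and COL1A2 were above that of SOX2. At the canonical start 5 had one, these 4 with the same folds and THY1 with 5.95. COL1A1, COL3A1 and POSTN had none at either start. Of 6 blood markers only LCP1 had one at the outermost start, 14.8, and 0 had one at the canonical start. Whether other cells contributed to any region was not tested.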

How the data were processed

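ATAC-seq was run on 2 samples of H1 cells that form 1 group and share 1 peak list of 236878 summits. The build was GRCh38, per the submitters' processing notes. The aligner, the caller, its settings and its read shift were not given in the sources used here. Per the labels the list is the optimal set of an overlap. Units follow from the narrowPeak layout. The fold was deposited as a ratio to an undescribed background, and the −log10 p as deposited comes from the caller. The deposited score, not used here, equals 10 times the −log10 p, capped at 1000, in all but 12 rows. The deposited summit offset was used as given. Depth per sample was not analysed here, so no precision per sample can be stated.

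Rows with the same coordinates were taken as 1 region, placed at its summit of highest fold. Genes came from GENCODE release 44 and sequence from hg38, with promoters 1000 bp to either side of the outermost 5′ end of any gene. Matches to 21 strings, and to 1 core added later, were found by exact search on both strands within 50 bp of the summit and in the RefSeq promoters. Shares at the same G+C content weight the list's regions by steps of 5 percentage points. The MESP alignment was local. All 7 genes are named, with their start regions, the nearest ones, the 3 strongest per window and the neighbours with a region at the start. Genes of the lists were named by rank of the fold or for having no region. Intervals are 95% exact Clopper-Pearson intervals and cover counting error only. No test over samples was possible. The scripts were tested on simulated data, with Python 3.11.15, numpy 2.4.6, pandas 2.3.3 and scipy 1.17.1. Members, lists and strings were chosen with earlier results of these data known. The CTCF core and the ranking of −log10 p at like fold were chosen after the values, and the sequences of the strongest regions, were seen.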

Additional observations from a re-analysis of the deposited data

How the results depend on the processing

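The 93 regions became 51 with a flank of 50 kb, 165 with 200 kb and 58 when only regions above the median −log10 p of the list were kept, and stayed 93 when any summit or any base in the window counted. The 7 of 7 genes with a region at the start stayed 7 under each of the 5 alternatives tried. The median fold fell from 5.47 to 4.18 when every summit was counted. The share outside every promoter was 57.0% with all transcript starts, against 68.8%. The regions nearest to one of the 7 genes fell from 50 to 19 when genes of every type competed. The share with the CTCF core was 43.0% over 100 bases to either side, against 25.0% of the list, and 21.1% over every summit, against 16.0%. These shifts follow from what each alternative counts. No paired analysis was possible because both samples share 1 list, and for the same reason no replicate could be left out.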
